A study of Mus musculus with 12 samples.

Results

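Iqgap2, Aplp2 and Enpep, 3 of the 12151 genes with deposited expression values, were examined across 12 RNA-seq libraries of mouse BCR-ABL1 pre-B acute lymphoblastic leukemia cells. The 3 genes were chosen because their response to Cre differed between cells labelled wild type (WT) and cells labelled knockout (KO) for Ikzf1 and Ikzf3. The values that chose them are therefore given as a description, without a test. All 12 libraries came from cells carrying BCR-ABL1 and 1 floxed Ctnnb1 exon 3 allele, whose excision removes the phosphorylation sites that mark β-catenin for degradation. ERT2 WT cells carried a nontargeting guide (sgNTC) and the ERT2 empty vector, and Cre-ERT2 WT cells carried the same guide and the Cre that 4-OHT, a tamoxifen metabolite, switches on. The study used 4-OHT to stabilize β-catenin, but the labels give its timing for chromatin experiments only and no treatment for each RNA library. ERT2 KO and Cre-ERT2 KO cells carried guides against Ikzf1 and Ikzf3, the genes of the zinc-finger factors Ikaros and Aiolos, in place of sgNTC. Each of the 4 groups had 3 libraries. The lines were grown from single cells and sorted for GFP, the labels do not say which libraries came from separate clones or cultures, and the p-values measure the spread between these libraries only.

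IQGAP2 is a scaffold of the IQGAP family, whose members bind actin filaments, calmodulin and the small GTPases Cdc42 and Rac1 and, in the case of IQGAP1, also β-catenin and E-cadherin. APLP2 is a membrane protein of the amyloid precursor family, cut by the α-, β- and γ-secretases that also process APP. ENPEP is aminopeptidase A, a membrane enzyme that removes acidic residues from the N terminus of peptides such as angiotensin II, and it is known in mouse B-cell precursors as the surface antigen BP-1 (6C3), a marker used to separate early precursor fractions. Ikaros and Aiolos bind DNA at sites with the core GGGAA, and β-catenin reaches DNA through TCF/LEF factors, whose sites hold the core CTTTG.

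All 3 genes are protein-coding and lie on the minus strand of the GRCm38 assembly. In GENCODE M21, Iqgap2 spans chromosome 13 from 95627177 to 95891922 (264746 bp), Aplp2 spans chromosome 9 from 31149557 to 31211815 (62259 bp) and Enpep spans chromosome 3 from 129269175 to 129332720 (63546 bp). The 250 bases upstream of each RefSeq start (GRCm38.p6) are shown because they allow the letters of the Ikaros and TCF/LEF cores to be looked up beside each expression pattern. The sequences read 5′ to 3′ on the minus strand, at chr13:95891923-95892172 for Iqgap2, chr9:31211849-31212098 for Aplp2 and chr3:129332750-129332999 for Enpep, and capitals mark CTTTG or its reverse complement CAAAG.
Iqgap2: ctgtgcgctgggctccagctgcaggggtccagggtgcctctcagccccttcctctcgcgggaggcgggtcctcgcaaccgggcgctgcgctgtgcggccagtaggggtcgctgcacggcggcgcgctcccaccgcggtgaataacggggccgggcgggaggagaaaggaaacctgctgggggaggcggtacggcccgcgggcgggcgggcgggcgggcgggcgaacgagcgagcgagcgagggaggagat
Aplp2: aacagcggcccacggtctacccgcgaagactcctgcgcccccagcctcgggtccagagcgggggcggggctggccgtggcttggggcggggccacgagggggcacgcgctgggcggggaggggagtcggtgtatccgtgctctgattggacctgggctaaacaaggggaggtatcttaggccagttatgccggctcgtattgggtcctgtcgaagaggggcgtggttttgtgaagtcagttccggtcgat
Enpep: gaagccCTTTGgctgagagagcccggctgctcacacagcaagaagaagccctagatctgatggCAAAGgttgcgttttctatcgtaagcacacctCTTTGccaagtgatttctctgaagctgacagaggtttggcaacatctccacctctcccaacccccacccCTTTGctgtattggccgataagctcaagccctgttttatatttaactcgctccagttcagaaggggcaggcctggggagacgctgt
GC content was 75.2% for Iqgap2, 66.4% for Aplp2 and 52.4% for Enpep, the last equal to the median of all promoters in the table. GGGAA, read on both strands, was found in none of the 3 windows, while 56.2% of 32851 promoter windows of 250 bases held it. CTTTG, read on both strands, was found in neither Iqgap2 nor Aplp2, was found 4 times in Enpep, and was present in 48.6% of all promoters. The first bases of the 4 Enpep matches lay 244, 187, 155 and 86 bases upstream of the start, with the match at 187 read on the opposite strand and no match overlapping another. As many or more matches were found in 0.773% of promoters. The longer forms CTTTGA and CTTTGT, present in 27.6% of promoters, were in none of the 3 windows. These are matches of letters in a short window and binding was not examined here. The study mapped binding of Ikzf1, Ikzf3 and β-catenin by ChIP-seq, and those data were not used.

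Expression values were deposited on a log2 scale and are compared between libraries within a gene only. Medians over all genes ran from 9.06 to 9.11 in the 12 libraries, and sequencing depth is unknown because no counts were used. Ikzf1 was higher in KO than in WT by 0.96 (adjusted p = 4.64e-15, limma) and Ikzf3 was lower, at -0.67 (adjusted p = 6.33e-10, limma). A guide cuts a gene without removing its transcript and a gene-level Ctnnb1 value does not read exon 3, so these values check neither label, and KO here means the libraries labelled with both guides. All 10 B-lineage markers looked up, such as Cd79a, Pax5 and Vpreb1, were measured. Their summed unlogged level was 105137 to 109158 in the WT libraries and 79031 to 84119 in the KO libraries. Of 10 markers each, 2 T cell markers (Zap70 and Lat), 2 myeloid markers (Itgam and Lyz2), 2 stromal markers (Pecam1 and Lepr) and 0 erythroid or megakaryocyte markers were measured, and the others were not analysed here. The T cell sum was 2211 to 2263 in Cre-ERT2 WT and 1794 to 1904 in the other groups. The T cell sum was mostly Lat, at 10.73 to 10.97 in the log2 group means, as Zap70 stood at 6.88 to 7.85. On the log2 scale, the Cre difference of Lat was 0.23 in WT and -0.019 in KO. Zap70 stood 0.65 higher with Cre in WT and 0.41 higher in KO. The myeloid sum was 189 to 196 in WT and 350 to 433 in KO, and the stromal sum was 1697 to 2183 in WT and 861 to 1130 in KO. The myeloid sum was mostly Lyz2, at 7.38 to 8.61 in the log2 group means, as Itgam stood at 4.51 to 4.70. Itgam had a KO difference of -0.16, opposite in direction to Lyz2. The stromal sum was mostly Pecam1, at 9.74 to 11.07, as Lepr stood at 2.87 to 2.90 with a KO difference of 0.024. The part of these markers in the results was not tested. In bulk RNA, fewer cells of a type and less RNA per cell cannot be told apart.

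**Figure D1:**
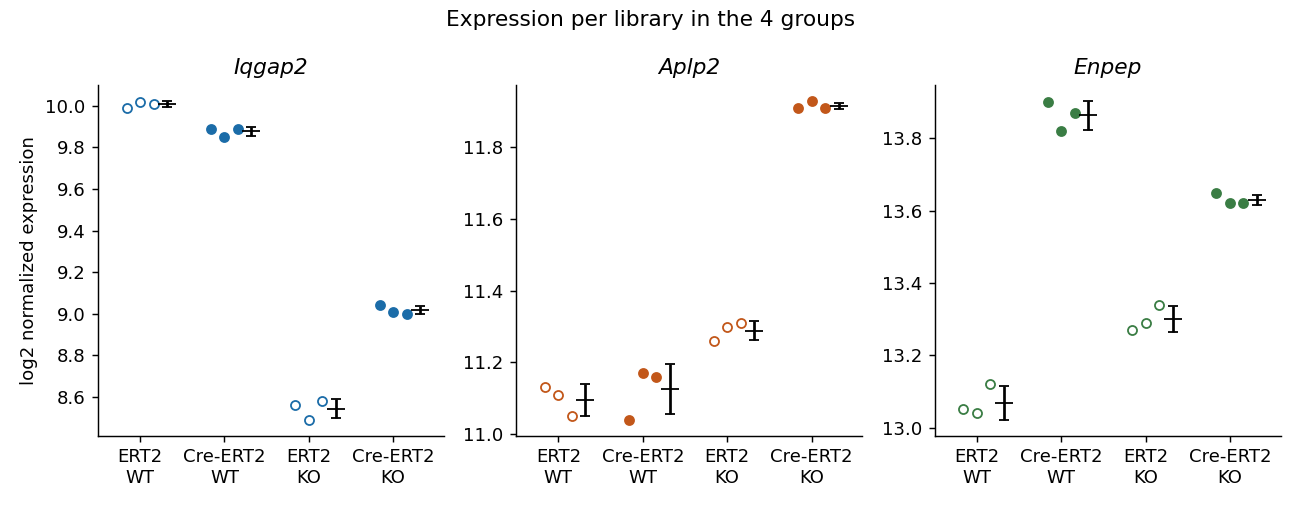
Deposited log2 expression of Iqgap2, Aplp2 and Enpep in the 12 libraries (points) with the mean and SD of each group of 3, WT and KO each with ERT2 or Cre-ERT2. Iqgap2 was lowest in ERT2 KO at 8.54, Aplp2 was highest in Cre-ERT2 KO at 11.92, and Enpep was highest in Cre-ERT2 WT at 13.86.

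Iqgap2 was lower in KO than in WT cells, and Cre went with a slightly lower level in WT and a higher level in KO. In ERT2 WT the 3 libraries stood at 9.99, 10.02 and 10.01, and in Cre-ERT2 WT at 9.89, 9.85 and 9.89. In ERT2 KO they stood at 8.56, 8.49 and 8.58, and in Cre-ERT2 KO at 9.04, 9.01 and 9.0. None of the 4 groups overlapped another, and their order from high to low was ERT2 WT, Cre-ERT2 WT, Cre-ERT2 KO and ERT2 KO. Group means were 10.01 ± 0.015, 9.88 ± 0.021, 9.02 ± 0.018 and 8.54 ± 0.046 in that order (SD, n = 3). Cre-ERT2 minus ERT2 was -0.13 in WT, or 91.3% of the ERT2 level, and 0.47 in KO, a 1.39-fold higher level. The difference between these responses was 0.60 on the log2 scale. KO minus WT was -1.46 with ERT2, leaving 36.2% of the WT level, and -0.86 with Cre-ERT2, leaving 55.1%. The KO value thus stayed below both WT groups with either vector.

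Aplp2 was higher in KO than in WT cells, and the rise with Cre was seen in KO. The libraries stood at 11.13, 11.11 and 11.05 in ERT2 WT and at 11.04, 11.17 and 11.16 in Cre-ERT2 WT. The 2 WT groups overlapped, with means of 11.10 ± 0.045 and 11.12 ± 0.070 (SD, n = 3). In ERT2 KO the libraries stood at 11.26, 11.30 and 11.31 (11.29 ± 0.026), and in Cre-ERT2 KO at 11.91, 11.93 and 11.91 (11.92 ± 0.0089). Every ERT2 KO library lay above every WT library, and every Cre-ERT2 KO library lay above these in turn. Cre-ERT2 minus ERT2 was 0.029 in WT, a 1.02-fold level within the spread of the libraries, and 0.63 in KO, a 1.54-fold higher level. KO minus WT was 0.19 with ERT2 and 0.79 with Cre-ERT2, or 1.14-fold and 1.73-fold. The difference between the Cre responses was 0.60, the same size to 2 decimals as for Iqgap2.

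Enpep was higher with Cre in both backgrounds, with the wider gap in WT. The libraries stood at 13.05, 13.04 and 13.12 in ERT2 WT and at 13.90, 13.82 and 13.87 in Cre-ERT2 WT. In KO they stood at 13.27, 13.29 and 13.34 with ERT2 and at 13.65, 13.62 and 13.62 with Cre-ERT2. The order from low to high was ERT2 WT, ERT2 KO, Cre-ERT2 KO and Cre-ERT2 WT, and no 2 groups overlapped. The KO groups thus lay between the WT groups. Group means in that order were 13.07 ± 0.046, 13.30 ± 0.036, 13.63 ± 0.014 and 13.86 ± 0.040 (SD, n = 3). Cre-ERT2 minus ERT2 was 0.80 in WT and 0.33 in KO, a 1.74-fold and a 1.26-fold higher level, and the difference between these responses was -0.47. KO minus WT was 0.23 with ERT2, a 1.17-fold higher level, and -0.24 with Cre-ERT2, or 85.0% of the WT level.

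The simple comparisons are given beside all genes as a description only. They hold the values that chose the 3 genes, so no excess over all genes is read from them. Groups did not overlap in Cre-ERT2 against ERT2 within WT for 2 of the 3 genes, while this was so for 31.1% of all genes. Within KO it was so for 3 of 3, against 28.3% of all genes. For KO against WT it was so for 3 of 3 with ERT2 and 3 of 3 with Cre-ERT2, against 65.5% and 63.6% of all genes. The difference between the Cre responses itself passed an adjusted p of 0.05 (limma) in 4.53% of all genes (2.71% with a positive and 1.82% with a negative difference), and nothing is read from its value in the 3 genes because it chose them. By absolute size among the 12151 genes, the difference ranked 28 for Iqgap2, 29 for Aplp2 and 58 for Enpep. The sign was positive for Iqgap2 and Aplp2 and negative for Enpep. On the unlogged scale (2 raised to the deposited value) Cre-ERT2 minus ERT2 was -89.2 in WT and 144.9 in KO for Iqgap2. For Aplp2 it was 45.5 and 1362, and for Enpep 6325 and 2587, so the order of the 2 responses was the same on both scales.

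**Figure D2:**
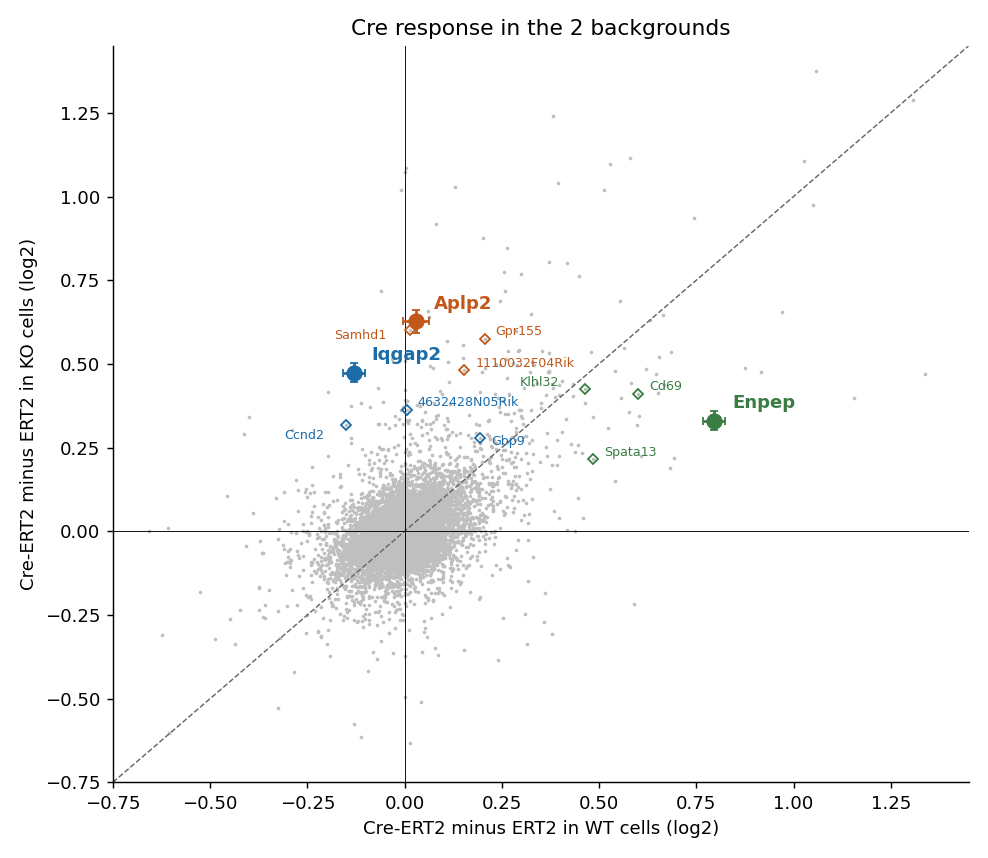
Cre-ERT2 minus ERT2 in KO (vertical, log2) against the same difference in WT (horizontal, log2), each point 1 gene, with 12143 of 12151 genes inside the axes the diagonal marking equal responses, SE bars on the 3 genes, and diamonds for the 3 genes with the nearest profile to each, in its color. Iqgap2 (-0.13, 0.47) and Aplp2 (0.029, 0.63) lie above the diagonal and Enpep (0.80, 0.33) lies below it.

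Each factor averaged over the other is orthogonal to the difference between the responses, on which the 3 genes were chosen. These averages are made of the same simple comparisons as that difference. A gene chosen for a large response in 1 background carries part of it into the average. The number of chosen genes that pass is therefore no separate support. The averages and the difference also share each gene's spread estimate. KO minus WT, averaged over the vectors, passed an adjusted p of 0.05 in 69% of all genes (35.3% higher and 33.7% lower), and in 2 of the 3 genes. With each library centered on its median, the higher calls over all genes went from 51.2% to 37.6% of calls. Iqgap2 fell by 1.16 (SE 0.020, adjusted p = 3.51e-14, limma), to 44.7% of the WT level. Aplp2 rose by 0.49 (SE 0.024, adjusted p = 1.19e-09, limma), a 1.41-fold higher level. In an exact 2-sided permutation of libraries within each vector, p was 0.005 for both, the smallest that 400 arrangements can give. Enpep did not pass, with a difference of -0.0018 (SE 0.020, adjusted p = 0.943, limma, and p = 0.975 by exact permutation). This average combined the positive ERT2 and the negative Cre-ERT2 value of Enpep given above.

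Cre-ERT2 minus ERT2, averaged over the backgrounds, passed in 19.6% of all genes (10.1% higher and 9.51% lower) and in all 3 of the chosen genes, in each case upward. Enpep rose by 0.56 (SE 0.020, adjusted p = 1.04e-09, limma), with p = 0.005 by exact permutation within backgrounds, and the 6 Cre-ERT2 libraries all lay above the 6 ERT2 libraries. The share of all genes separated in this way was not counted, so nothing is read from that separation. Aplp2 rose by 0.33 (SE 0.024, adjusted p = 9.70e-07, limma, and p = 0.03 by exact permutation). Iqgap2 rose by 0.17 (SE 0.020, adjusted p = 5.73e-05, limma), but p was 0.1 by exact permutation and its WT libraries moved the other way. For Iqgap2 and Aplp2 the averaged rise came from the KO libraries, as the values per group show. For Enpep it combined the Cre differences of 0.80 in WT and 0.33 in KO, which also chose it. None of the 3 Cre averages is therefore independent of the choice.

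The families of the 3 genes were looked at next, from the averaged comparisons. Iqgap1, the widely expressed scaffold, was lower in KO by the same test, with a difference of -0.28 (adjusted p = 1.76e-09, limma), and its Cre difference of 0.022 did not pass (adjusted p = 0.311, limma). Iqgap3, which is expressed in proliferating cells, was higher in KO by 0.24 (adjusted p = 1.19e-07, limma), the opposite direction to Iqgap2. Its Cre difference was -0.058 (adjusted p = 0.0460, limma). That call was kept in only 1 of the 12 fits that left out 1 library, the one without ERT2 KO replicate 2, and the values ranged from -0.069 to -0.046. App and Aplp1, the other amyloid precursor genes, and Anpep, the aminopeptidase N gene, were not analysed here. Among relatives of Enpep, Erap1, which trims peptides in the endoplasmic reticulum, was lower in KO by 0.47 on the log2 scale and higher with Cre by 0.082 (adjusted p = 1.3e-10 and 0.00756, limma). Npepps, a cytosolic aminopeptidase, was higher in KO by 0.24 (adjusted p = 2.62e-07, limma). Lnpep, which encodes the insulin-regulated aminopeptidase, passed neither comparison, with differences of 0.034 and 0.027 (adjusted p = 0.358 and 0.619, limma).

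**Figure D3:**
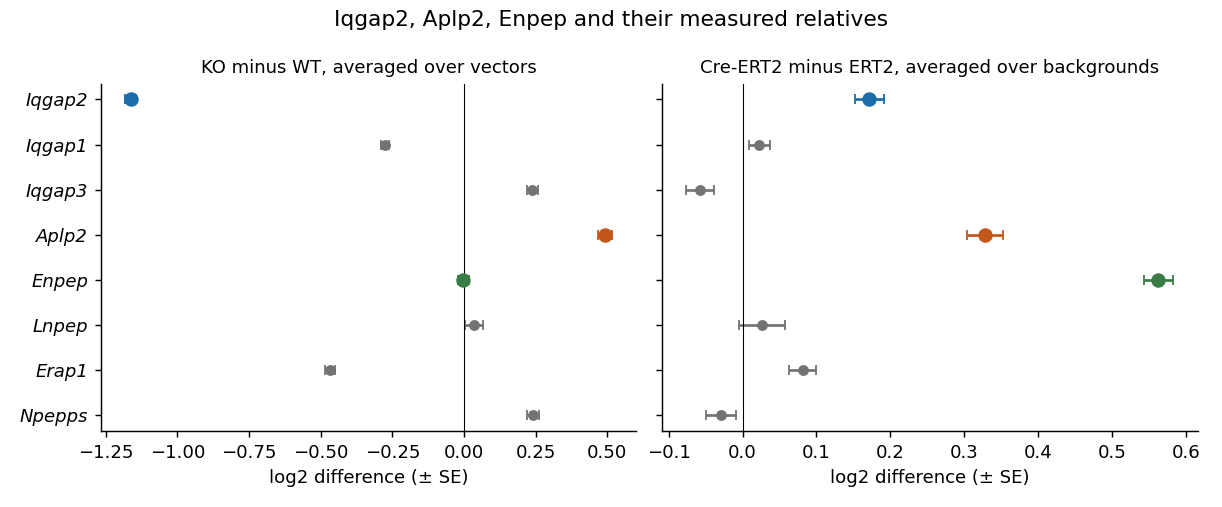
Log2 differences of Iqgap2, Aplp2, Enpep and their measured relatives, KO minus WT averaged over the vectors and Cre-ERT2 minus ERT2 averaged over the backgrounds, with SE. Iqgap2 at -1.16 lies below Iqgap1 at -0.28 and Iqgap3 at 0.24, and Enpep at 0.56 in the Cre comparison lies above Erap1 at 0.082.

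Of 33 listed genes for IQGAP proteins, their GTPases and actin partners, 30 were measured. KO minus WT passed in 28 (12 higher, 16 lower, median -0.095, against a median of 0.0023 over all genes), and Cre-ERT2 minus ERT2 in 12 (9 higher, 3 lower, median 0.011). Over all genes these shares were 69% and 19.6%. Ctnna1, encoding α-catenin, which links cadherin and β-catenin to actin, rose by 1.39 in KO. Msn, encoding the membrane and actin linker moesin, fell by 0.52, and the calmodulin gene Calm2 fell by 0.43. With Cre, the hematopoietic GTPase gene Rac2 and the Cdc42 effector gene Cdc42ep3 each rose by 0.18, Calm2 rose by 0.14, and the ezrin gene Ezr fell by 0.14. In 3 of the 30 the Cre responses differed between backgrounds, with Rac2 at 0.18 and Ctnna1 and Ezr at -0.16 and -0.31 (KO minus WT, adjusted p under 0.05, limma), against 4.53% of all genes.

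Of 34 listed amyloid precursor family, secretase and adaptor genes, 26 were measured. KO minus WT passed in 19 (11 higher, 8 lower, median 0.028) and Cre-ERT2 minus ERT2 in 5 (3 higher, 2 lower, median 0.0077), shares close to the 69% and 19.6% of all genes. Itm2c, which encodes a BRI2-related membrane protein, rose by 1.43 in KO, and the endocytic receptor gene Lrp1 rose by 0.83. The adaptor gene Apbb2 rose by 0.76, and Adam10, encoding the main α-secretase, fell by 0.40. Adam10 rose with Cre by 0.18, and the metalloprotease gene Adam9 by 0.28, the latter at an adjusted p of 0.0484 (limma) that was lost in 7 of 12 fits with 1 library left out, those without ERT2 WT replicate 1 or 3, Cre-ERT2 WT replicate 2 or 3, ERT2 KO replicate 2 or Cre-ERT2 KO replicate 1 or 3 (0.20 to 0.28). The β-secretase gene Bace1, at a low level of 3.29 to 3.36 in the group means, rose with Cre by 0.035, and the JNK scaffold gene Mapk8ip1 fell by 0.058. Mapk8ip1 was also low, at 4.38 in ERT2 KO, 4.26 in Cre-ERT2 KO and 4.17 in both WT groups. Its WT libraries were nearly constant (SD 9.53e-05 with ERT2 and 0.00013 with Cre-ERT2). Whether a Cre response in WT could be measured at this level is not known. The Cre responses differed between backgrounds in 2 of the 26, Lrp1 (0.30) and Mapk8ip1 (-0.12), against 4.53% of all genes. Each call was lost in 6 of the 12 fits with 1 library left out: for Lrp1 without ERT2 WT replicate 1, ERT2 KO replicate 1, Cre-ERT2 KO replicate 1 or any Cre-ERT2 WT library (0.24 to 0.30), and for Mapk8ip1 without any 1 WT library (-0.12 in each).

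Of 23 listed symbols for M1 aminopeptidases and angiotensin peptidases, 1 gene being listed under 2 symbols, 10 were measured. KO minus WT passed in 8 (2 higher, 6 lower, median -0.16) and Cre-ERT2 minus ERT2 in 4, all higher (median 0.022), against 69% and 19.6% of all genes. Dpp4, encoding a dipeptidyl peptidase of the cell surface, fell by 0.58 in KO and rose by 0.42 with Cre. The angiotensin receptor-associated gene Agtrap and the leukotriene A4 hydrolase gene Lta4h fell by 0.31 and 0.28 in KO. The Cre difference was 0.072 for Lta4h and 0.059 for Atp6ap2, the prorenin receptor gene, whose call was kept in 3 of 12 fits with 1 library left out, those without Cre-ERT2 WT replicate 1, ERT2 KO replicate 3 or Cre-ERT2 KO replicate 1 (0.051 to 0.067). None of the 10 passed for the difference between the Cre responses in limma, and 5 had an unadjusted p under 0.05, as did 17.3% of all genes. Of 4 thrombin receptor genes, 1 was measured, F2r, which was also the measured gene nearest to Iqgap2. F2r stood at a low level of 3.10 to 3.17 in the group means. Its KO difference of -0.058 passed and its Cre difference of 0.0083 did not.

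Because BP-1 marks a stage of B-cell precursors, the stage markers were described as a group. Of 30 listed, 28 were measured. KO minus WT passed in 26 (4 higher, 22 lower, median -0.40), against 69% of all genes, while Enpep itself did not pass. The Enpep average combined opposite differences, 0.23 with ERT2 and -0.24 with Cre-ERT2. Blk, a B-cell Src-family kinase gene, fell by 3.71, and Il2ra, the CD25 gene of pre-B cells, fell by 3.37. The surface antigen genes Cd2 and Cd24a had differences of -1.51 and -1.20. With Cre, 17 passed (8 higher, 9 lower, median 0.0056), against 19.6% of all genes. Cd93, encoding an antigen of early B-lineage cells, rose by 0.55, Dntt, encoding terminal transferase, by 0.53, Il2ra by 0.39 and Ptprc, the CD45 gene, by 0.22. Each of the 9 that fell had a smaller difference than these 4, among them Vpreb2 and Vpreb1, encoding surrogate light chain parts, at -0.20 and -0.15, Erg at -0.20, Blk at -0.19 and the recombinase gene Rag1 at -0.14. Vpreb2, Vpreb1, Erg and Rag1 were named after their values were seen. The Cre responses differed between backgrounds in 5 of the 28, against 4.53% of all genes. Dntt (0.30 in WT, 0.77 in KO) and Spn, the CD43 gene (0.035 and 0.21), were higher in their KO response, as were Iqgap2 and Aplp2. Cd93 (0.67 and 0.44), Cd24a (0.19 and -0.063) and Ly6d were lower in it, as was Enpep. The differences were 0.47 for Dntt, 0.18 for Spn, -0.23 for Cd93, -0.25 for Cd24a and -0.14 for Ly6d, the last a gene named after its value was seen.

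**Figure D4:**
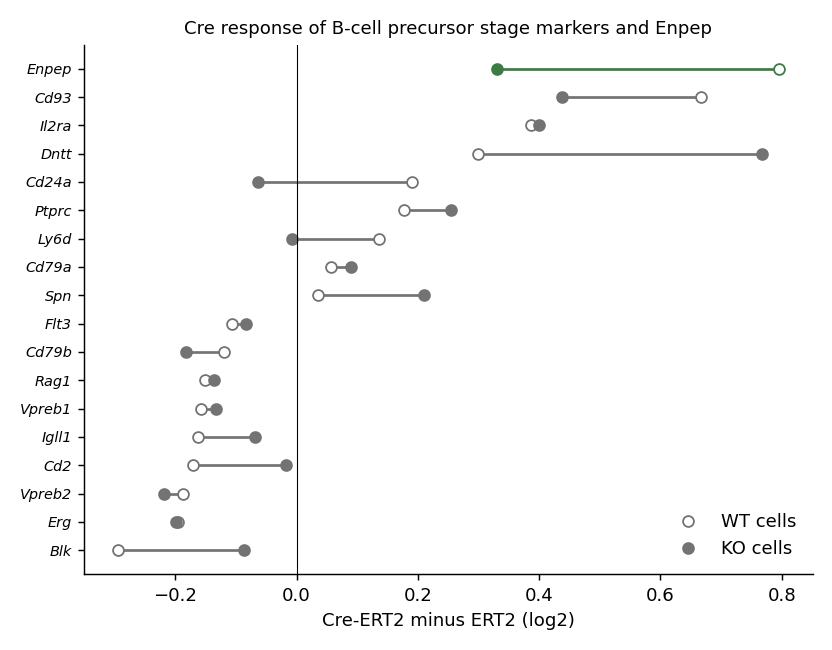
Cre-ERT2 minus ERT2 (log2) in WT cells (open points) and KO cells (filled points) for Enpep and the 17 B-cell precursor stage markers that passed in the averaged Cre comparison, ordered by the WT value. Enpep stands at 0.80 in WT and 0.33 in KO, and Dntt, at 0.30 and 0.77, has its higher value in KO.

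Genes that lie next to the 3 were then compared, 3 measured genes on each side. Positions were found for 12111 of the 12151 genes. None of the 18 neighbors passed for the difference between the Cre responses in limma, with values from -0.28 to 0.098, and 4 (Polk, St14, Zbtb44 and Tifa) had an unadjusted p under 0.05, near the 17.3% of all genes. KO minus WT passed in 15 (4 higher, 11 lower) and Cre-ERT2 minus ERT2 in 6 (1 higher, 5 lower), against 69% and 19.6% of all genes. F2r ends 8.69 kb from Iqgap2, and its KO difference of -0.058 passed (adjusted p = 1.92e-06, limma), in the direction of Iqgap2 but at a low level. Crhbp, the corticotropin-releasing hormone binding protein gene on the same side, had a KO difference of -0.32 and the value of -0.28 for the difference between the responses (SE 0.14). St14, encoding the protease matriptase, lies 17.7 kb from Aplp2 and rose by 0.24 in KO but fell by 0.11 with Cre. Prdm10, 68.7 kb from Aplp2 on its other side, passed neither, at 0.0059 and 0.017. Beside Enpep, the NF-κB adaptor gene Tifa, 1437 kb away, fell by 1.34 in KO and rose by 0.16 with Cre. The phospholipase gene Pla2g12a, at 545.9 kb, rose by 0.85 in KO and fell by 0.18 with Cre. Elovl6, the fatty acid elongase gene 199.6 kb away, had differences of 0.029 and -0.057. The Cre call was kept in 4 of the 12 fits with 1 library left out for Crhbp, those without replicate 1 of ERT2 WT, Cre-ERT2 WT or ERT2 KO or replicate 3 of Cre-ERT2 KO, and in 2 for Elovl6, those without ERT2 KO replicate 2 or Cre-ERT2 KO replicate 1. The KO call was lost in 3 such fits for Zbtb44 (ERT2 WT replicate 2, Cre-ERT2 WT replicate 3 or Cre-ERT2 KO replicate 2) and in 6 for the pseudogene Gm3756 (replicate 3 of any group, or replicate 2 of either KO group).

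**Figure D5:**
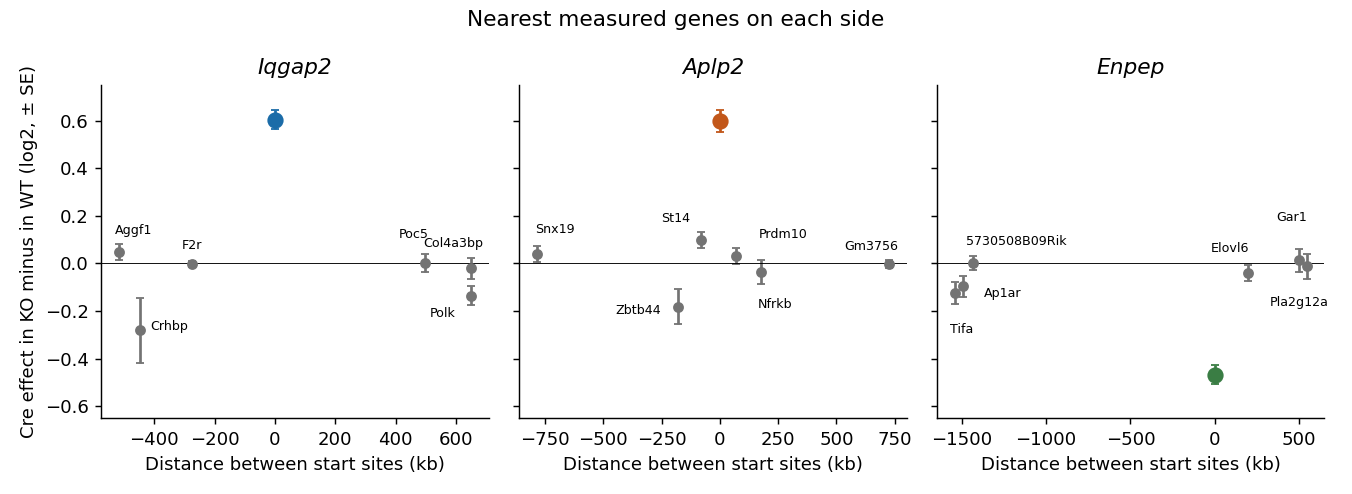
Difference between the Cre responses (KO minus WT, log2, with SE) of Iqgap2, Aplp2, Enpep and the 3 measured genes on either side of each, against the distance between start sites in kb. The 18 neighbors lie between -0.28 and 0.098, and the 3 genes at 0.60, 0.60 and -0.47.

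The genes whose values over the 12 libraries were most like each of the 3 were found by the root mean square distance between profiles, each centered on its own mean. They were chosen on these values and carry no test. For Iqgap2, whose own profile had a root mean square of 0.607, they were 4632428N05Rik (the gene of the immune checkpoint VISTA, distance 0.137), Ccnd2, the cyclin D2 gene (0.138), and Gbp9, a guanylate-binding protein gene (0.144). The median distance over all genes was 0.610. Ccnd2 stood at -0.15 with Cre in WT and 0.32 in KO, with the same pair of signs as Iqgap2. For Aplp2 (0.333), they were the membrane protein gene Gpr155 (0.0838), 1110032F04Rik (0.0915) and Samhd1, which encodes a dNTP hydrolase (0.0923), against a median of 0.337. Samhd1 had Cre differences of 0.013 in WT and 0.60 in KO, close to the 0.029 and 0.63 of Aplp2. For Enpep (0.306), they were the activation antigen gene Cd69 (0.0938), the Rac and Cdc42 exchange factor gene Spata13 (0.123) and Klhl32 (0.127), against a median of 0.317. Cd69 stood at 0.60 with Cre in WT and 0.41 in KO, and Klhl32 at 0.46 and 0.42.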

How the data were processed

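RNA-seq of 12 libraries was analysed, 3 in each of 4 groups taken from the labels. Per the labels, libraries were made from 280 ng RNA with 10 PCR cycles. The submitters' processing notes name Salmon 1.4.0, STAR 2.7.6 and DESeq2 1.30.1 and the mouse build mm10. The authors deposited log2 expression values for 12151 genes. The transformation and gene filter are not given in the sources used here. No counts were used, so depth is unknown and precision rests on the 3 libraries per group. The 4-OHT timing in the labels is worded for chromatin experiments.

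A limma 3.58.1 model (R 4.3.3) of the 4 groups with a mean-variance trend was fitted to all genes, with Benjamini-Hochberg adjustment over all genes and a threshold of 0.05. It was tested on simulated data. An exact permutation test used the mean difference, permuting within the other factor. Named genes were the 3 genes, their relatives, up to 4 called genes of each list and contrast with the largest difference, 3 neighbors on each side, the 3 nearest profiles, and Ikzf1, Ikzf3 and Ctnnb1. A gene that this rule named is not reported here. The genes and lists were chosen with earlier results of these data known. Positions came from GENCODE M21 and promoters from RefSeq. Alternatives were library centering, quantile normalization, a pseudocount of 1, no low-value genes, no trend, a threshold of 0.01, a replicate block and leaving out each library.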

Additional observations from a re-analysis of the deposited data

Results flagged for a closer look

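Iqgap2 moved in opposite directions with Cre in the 2 backgrounds, with Cre-ERT2 minus ERT2 at -0.13 in WT and 0.47 in KO, and every library of each Cre-ERT2 group lay on the same side of its ERT2 group. Enpep moved in opposite directions between KO and WT in the 2 vectors, at 0.23 with ERT2 and -0.24 with Cre-ERT2, again without overlap of libraries. The difference was not tested for either gene, because it chose them. Groups of 3 libraries were not examined for single libraries that stand apart.

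The difference between the Cre responses (KO minus WT, log2) passed an adjusted p of 0.05 in limma in 550 genes, 4.53% of all. Those listed here are only the genes picked by the naming rule, without the 3 genes and the nearest profiles. Positive values were 0.47 for Dntt, 0.30 for Lrp1, 0.18 for Rac2 and 0.18 for Spn. Negative values were -0.31 for Ezr, -0.25 for Cd24a, -0.23 for Cd93, -0.16 for Ctnna1, -0.12 for Mapk8ip1 and -0.10 for Ikzf1. The Lrp1 and Mapk8ip1 calls were each lost in 6 of the 12 fits with 1 library left out, and Mapk8ip1 was nearly constant in WT, at a low level of 4.17. The Ikzf1 call was kept in 1 of the 12 fits with 1 library left out, the one without Cre-ERT2 KO replicate 3, and the adjusted p in the other 11 was 0.0623 to 0.106 in limma.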

How the results depend on the processing

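The averaged differences of Iqgap2 and Aplp2, and the Cre average of Enpep, kept their direction and their side of the threshold under all 19 alternatives. The KO average of Enpep, which did not pass, changed sign to 0.030 with quantile normalization (adjusted p = 0.206, limma) and ranged from -0.012 to 0.011 when 1 library was left out. Cre-ERT2 minus ERT2 over all genes passed in 2382, and in 1365 at the threshold of 0.01, which is stricter by construction. The 2 KO differences of Iqgap2 went from -1.46 and -0.86 to -1.50 and -0.89 with each library centered on its median, and the Cre-ERT2 KO difference of Enpep from -0.24 to -0.19 with quantile normalization. Bace1 had a KO average of 0.032, which became -0.00082 with centering. Apart from the threshold, the cause was not tested. Of 2098 values for the other named genes, 1968 kept direction and call, and 129 lost the call.

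Correlations of same-numbered deviations between groups ran from -0.101 to 0.244, and in no pair of groups were all 3 over 0.1. Between ERT2 KO and Cre-ERT2 KO all 3 were positive, at 0.083 to 0.088. No pairing was therefore used in the main model, but deviations from means of 3 libraries cannot exclude shared cultures or batches. With a replicate block, 8300 genes passed for the KO average, 2261 for the Cre average and 424 for the difference between responses, against 8389, 2382 and 550 without the block. Depth, and hence counting error, could not be assessed. Calls of genes at low values rest on an unknown transformation.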

Other observations

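Single genes of the lists for other cell types also differed between the groups in which Iqgap2, Aplp2 and Enpep differed, and their part in those results was not tested. Lyz2, the lysozyme gene of myeloid cells, was higher in KO by 1.11 on the log2 scale. Itgam, the other myeloid gene measured, had a KO difference of -0.16 (adjusted p = 1.53e-07, limma). Pecam1, an adhesion gene of endothelial and early hematopoietic cells, had a KO difference of -0.995 and a Cre difference of 0.33. Lepr, the other stromal gene measured, had a KO difference of 0.024. Zap70, a kinase gene of T cells that was measured here beside the B-lineage markers, was higher with Cre by 0.53 (adjusted p = 9.56e-09, limma), with a difference between the responses of -0.24 (adjusted p = 0.0130, limma), both with the sign seen in Enpep. Lat, the other T cell gene measured, had a Cre difference of 0.11 (adjusted p = 0.00121, limma), made of 0.23 in WT and -0.019 in KO. Its difference between the responses was -0.25 (adjusted p = 0.00162, limma). All 10 B-lineage identity markers passed in KO minus WT (8 lower, 2 higher, median -0.17), against 69% of all genes (33.7% lower and 35.3% higher). Their differences ran from -0.78 for Cd79a to 0.39 for Cd22, with Pax5 at -0.068.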
